A study of Mus musculus with 12 samples.

Results

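The genes described are 6 of the STAT family, the signal transducers and activators of transcription: Stat2, Stat3, Stat4, Stat5a, Stat5b and Stat6. They were chosen by name, not by a threshold on measured values, and are 6 of the 56748 genes in the count matrix of this study. STAT proteins rest in the cytoplasm until a Janus kinase bound to a cytokine receptor phosphorylates them, whereupon they pair, enter the nucleus and bind DNA. Type I interferons such as IFNβ signal through JAK1 and TYK2 to STAT2, which acts together with IRF9. IL4, the cytokine used to polarize macrophages toward an M2-like state, signals through its receptor chain IL4RA to STAT6. Only RNA was measured, so none of the values below describes STAT protein or its phosphorylation.

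BMDM are macrophages grown from bone marrow, here of C57BL/6J mice, with M-CSF at 20 ng/mL. All of them received IL4 at 10 ng/mL for 48 hours and were then cultured for 72 hours under 1 of 4 conditions with 3 libraries each, described as 3 mice per condition. These were untreated control, supernatant of Dox-treated YUMM5.2 eGFP melanoma cells (eGFP supernatant), the corresponding supernatant of Ifnb1eGFP cells (Ifnb1eGFP supernatant) and recombinant IFNβ (rIFNβ). The YUMM5.2 line comes from a mouse melanoma, and its derivatives used here carry a lentiviral construct whose Dox-responsive promoter drives Ifnb1 with eGFP, or eGFP alone in the control line. The donor cells were given Dox at 1 µg/mL for 72 hours. IFNβ was present at 1500 pg/mL in the diluted Ifnb1eGFP supernatant and at a matching level in the rIFNβ cultures, and both supernatants had the same dilution. The paper speaks of Dox residues, which it judged not to add significantly to the variation, and gives no level for them. Any such residue came with the supernatants, so it cannot be told apart from their other effects. Whether IL4 was present during the final culture, and whether the same mice served several conditions, is not given in the sources used here. The 6 libraries with Ifnb1eGFP supernatant or rIFNβ are called IFNβ-exposed and the 6 others unexposed.

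Library totals ran from 31526034 to 45348457 counts, and 15033 genes, the 6 STAT genes among them, passed the filter on low counts. Levels are in CPM, which is counts per 1000000 of the normalized library. Differences are log2 fold changes with their standard error (SE) from edgeR's quasi-likelihood test over all 12 libraries, and a gene was called at a Benjamini-Hochberg adjusted p of at most 0.05. The 7 macrophage markers examined were all tested, with a summed level of 14337 to 18738 CPM in unexposed and 8686 to 9426 CPM in IFNβ-exposed libraries. Lyz2, Itgam and Cd14 were lower on average in the exposed conditions, while Adgre1, Cd68, Mertk and Csf1r were higher, among them Adgre1, which went from 1562 CPM untreated to 1775 CPM with rIFNβ. Of 11 T and NK cell markers, 9 had at most 3 counts in each library. The summed level of all 11 was 3.94 to 5.56 CPM in unexposed and 8.19 to 9.96 CPM in exposed libraries. Most of it was Cd4, at 4.26 CPM untreated and 8.54 CPM with rIFNβ on average, while Klrb1c went from 0.330 to 0.0174 CPM. Summed levels were 1.56 to 2.03 and 0.348 to 0.733 CPM for dendritic cell markers, 4.4 to 5.75 and 0.267 to 1.16 CPM for neutrophil markers, 0.604 to 0.804 and 1.17 to 1.63 CPM for B cell markers, and at most 0.758 CPM for mast cell markers. In unexposed libraries most of the neutrophil sum was S100a8, which measured 5.03 CPM untreated and 0.272 CPM with rIFNβ on average. Of 6 melanoma markers, 4 had at most 3 counts in each library, and the sum of all 6 was at most 0.810 CPM. The part of these shifts in the results was not tested. The eGFP supernatant library of replicate 2 stood apart among the unexposed libraries, with the highest level in all 22 of the partner and target genes of STAT2 examined, at 1.34 to 7.89 times the next highest library (median 3.74). The main values that rest on it are also given without it. In bulk RNA, a change in the number of cells of a type and a change of RNA per cell cannot be told apart.

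Stat2, Stat3, Stat5b and Stat6 were higher with IFNβ, whether it came as tumor cell supernatant or as recombinant protein, and Stat4 and Stat5a were not called. The increase was 8.48-fold and 12.9-fold for Stat2 and lay between 1.24-fold and 1.65-fold for the other 3 genes. Thus 4 of 6 STAT genes were called for Ifnb1eGFP against eGFP supernatant, where 55.1% of all genes tested were called and 30.1% were called higher. The same count of 4 of 6 held for rIFNβ against untreated control, with 55.3% of all genes called and 30.7% called higher. At the thresholds of the study, which are a log2 fold change of 2 or more in either direction and an adjusted p no higher than 0.01, Stat2 alone of the 6 was past them in both comparisons, beside 5.39% and 5.77% of all genes. Over all genes tested, the median log2 fold change was 0.03 and 0.04.

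**Figure D1:**
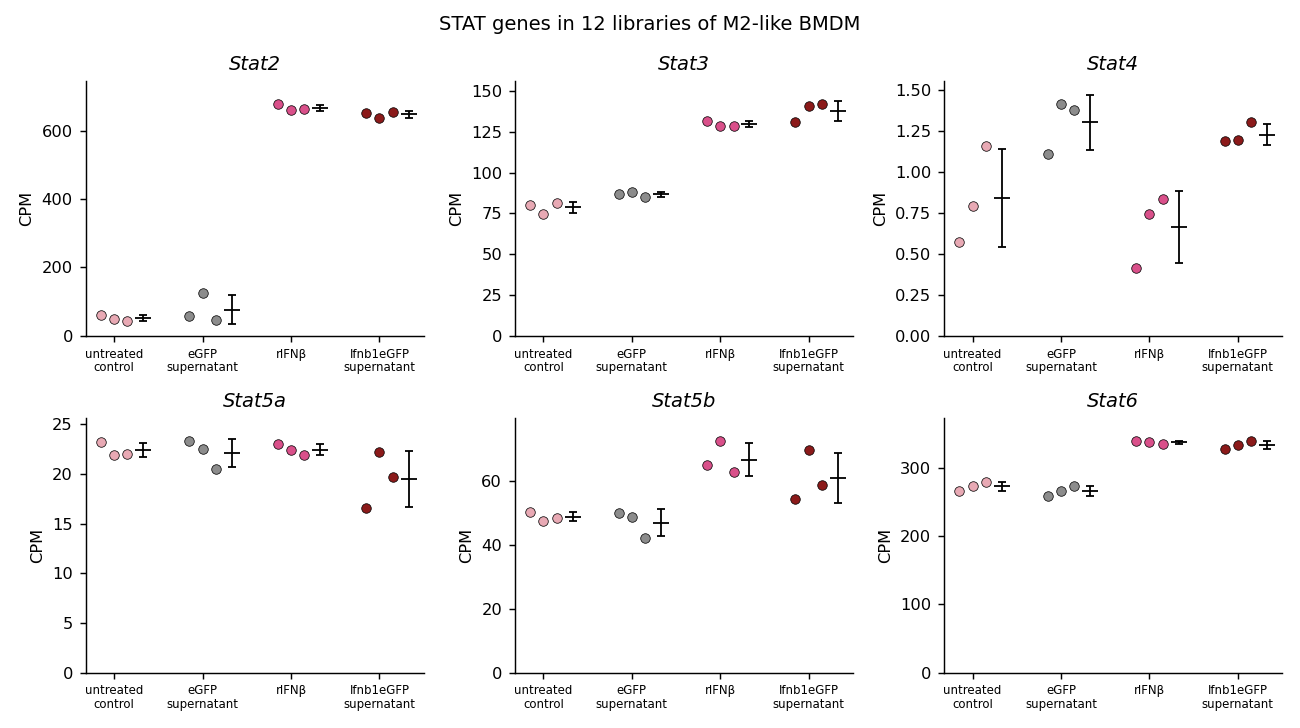
Level of each STAT gene in CPM (vertical axis, from 0) in the 12 libraries, by condition; each point is a library, and the bar and whiskers are the mean and SD of 3 libraries. Stat2, Stat3, Stat5b and Stat6 lie higher in the IFNβ-exposed conditions without overlap, and the eGFP supernatant library at 125 CPM of Stat2 stands above the other unexposed libraries.

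Stat2 (ENSMUSG00000040033), the partner of IRF9 in the response to type I interferon, lies on the plus strand at chr10:128106352-128128735 of GRCm39. In the untreated control libraries of replicates 1, 2 and 3 it measured 61.9, 49.9 and 43.4 CPM, and with rIFNβ 677, 662 and 662 CPM. With eGFP supernatant it measured 57.9, 125 and 46.6 CPM, and with Ifnb1eGFP supernatant 653, 637 and 655 CPM. All 6 exposed libraries therefore lay above all 6 unexposed ones, as in 25.5% of all genes tested. Relative to their means the exposed libraries were the more uniform, with SDs of 10.1 CPM (Ifnb1eGFP supernatant) and 8.97 CPM (rIFNβ) on means of 648 and 667 CPM. The means of the unexposed conditions were 51.7 ± 9.39 CPM (untreated, SD, n = 3) and 76.4 ± 42.3 CPM (eGFP supernatant, SD, n = 3). In CPM the untreated SD was thus of similar size, and that of eGFP supernatant includes the library at 125 CPM. The log2 fold change was 3.69 (SE 0.311, adjusted p = 1.33e-06) for rIFNβ against control and 3.08 (SE 0.302, adjusted p = 4.93e-06) for Ifnb1eGFP against eGFP supernatant. Without the eGFP supernatant library of replicate 2 the latter was 3.63 (adjusted p = 1.21e-08) and the former 3.69 (SE 0.124, adjusted p = 2.12e-09).

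The promoter windows of Stat2, of Stat6, whose protein carries the IL4 signal, and of the weakly expressed Stat4 were set side by side. They were taken from RefSeq on GRCm38.p6, from 250 bases before to 50 bases after a gene start. This build differs from that of the gene positions. The 6 genes have 9 such windows. Searched on both strands were TTTC followed after 2 bases of any kind by TTTC (the core of an interferon-stimulated response element), TTCNNNGAA (a gamma-activated site), and TTC followed after 4 bases of any kind by GAA (the spacing that STAT6 prefers). Matches are in capitals, each line reads 5′ to 3′ on the gene's strand, and the windows below are, in order, chr10:128270248-128270547 (plus strand), chr10:127642736-127643035 (plus strand) and chr1:52007990-52008289 (plus strand, the second of the Stat4 windows).
Stat2: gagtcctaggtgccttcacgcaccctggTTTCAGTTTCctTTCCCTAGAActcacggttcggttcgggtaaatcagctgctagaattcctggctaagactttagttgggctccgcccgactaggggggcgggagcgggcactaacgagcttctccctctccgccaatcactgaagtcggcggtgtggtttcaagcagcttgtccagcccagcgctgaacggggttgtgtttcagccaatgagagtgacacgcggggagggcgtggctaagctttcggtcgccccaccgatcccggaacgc
Stat6: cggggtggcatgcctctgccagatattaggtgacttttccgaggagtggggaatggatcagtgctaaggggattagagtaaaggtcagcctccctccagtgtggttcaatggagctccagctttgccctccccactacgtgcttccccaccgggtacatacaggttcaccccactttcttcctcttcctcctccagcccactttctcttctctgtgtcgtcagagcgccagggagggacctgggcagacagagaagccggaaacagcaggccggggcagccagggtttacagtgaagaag
Stat4: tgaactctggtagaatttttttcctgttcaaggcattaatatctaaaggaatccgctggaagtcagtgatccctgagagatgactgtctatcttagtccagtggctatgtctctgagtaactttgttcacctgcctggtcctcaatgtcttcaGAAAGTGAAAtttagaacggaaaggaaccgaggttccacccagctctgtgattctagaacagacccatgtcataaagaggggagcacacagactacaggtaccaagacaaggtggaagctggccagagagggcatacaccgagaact

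The Stat2 window holds TTTCAGTTTC, which begins 222 bases before the start, and TTCCCTAGAA, which begins 210 bases before it, with no base shared between them. The Stat4 window holds GAAAGTGAAA, a match on the other strand, 97 bases before the start. The Stat6 window and the other 6 windows of the STAT genes hold none of these letter patterns. Among all 32851 promoter windows, 3.44% hold the response element core, 8.3% hold TTCNNNGAA and 6.95% hold the STAT6 spacing. A match of letters is a description of the sequence, and no binding was measured.

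Stat6 (ENSMUSG00000002147), which carries the signal of IL4 and IL13, lies on the same chromosome and strand at chr10:127477821-127496862. It measured 266, 274 and 279.6 CPM in untreated control and 339, 339 and 335 CPM with rIFNβ. It measured 259, 265 and 274 CPM with eGFP supernatant and 328, 334 and 339.5 CPM with Ifnb1eGFP supernatant. The exposed libraries again lay above the unexposed ones without overlap. Its log2 fold change was 0.31 (SE 0.0374, adjusted p = 2.98e-05) with rIFNβ and 0.33 (SE 0.0374, adjusted p = 1.78e-05) with Ifnb1eGFP supernatant, an increase of 1.24-fold and 1.25-fold. Stat6 shares 77 exonic bases with Nab2 on the opposite strand, and Nab2 fell with IFNβ (log2 fold change −1.43, adjusted p = 1.35e-06, averaged over both media). The libraries were stranded, but the strand setting of the counting is not given in the sources used here, so reads within such an overlap may not have been told apart.

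Stat2 and Stat6, whose proteins carry the signals of type I interferon and of IL4, were compared within each library. The ratio of their counts does not depend on library scaling. All cultures had received IL4, so no effect of IL4 on Stat6 RNA was measured. Both genes rose with IFNβ, Stat2 by 3.39 and Stat6 by 0.32 on the log2 scale, averaged over both media. The ratio of Stat2 to Stat6 was 0.155 to 0.470 in the 6 unexposed libraries (median 0.203) and 1.91 to 2.00 in the 6 exposed ones (median 1.96). The highest unexposed ratio was that of the eGFP supernatant library of replicate 2. The mean log2 ratio differed by 3.15, by 3.40 without and 2.89 with supernatant, and by 3.36 when that library was left out (two-sided exact permutation test over 400 relabellings within medium, p = 0.005, the smallest p possible, and 0.005 after adjustment over 2 ratios). This ratio was chosen with earlier results of these data known, and Stat2 rose far more than Stat6. Its p therefore adds no support to the tests of Stat2 and Stat6 themselves. Stat6 had more counts than Stat2 in every unexposed library and fewer in every exposed one.

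**Figure D2:**
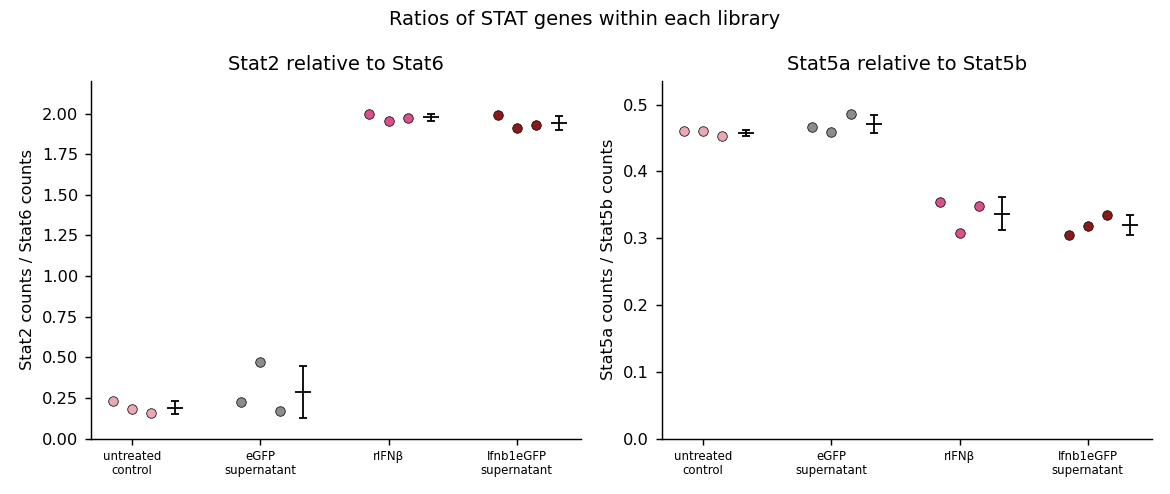
Ratio of the counts of Stat2 to Stat6 (left) and of Stat5a to Stat5b (right) in each library, by condition, with the mean and SD of 3 libraries; both axes start at 0. The ratio of Stat2 to Stat6 lies at 1.91 or above in each exposed library and at 0.470 or below in each unexposed one, and that of Stat5a to Stat5b at 0.354 or below and 0.453 or above.

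Stat3 (ENSMUSG00000004040) lies at chr11:100775924-100830450 on the minus strand and carries signals of IL6 and IL10. It measured 79.9, 74.7 and 81.4 CPM in untreated control and 132, 129 and 128 CPM with rIFNβ. It measured 86.8, 88.3 and 84.8 CPM with eGFP supernatant and 131, 141 and 142 CPM with Ifnb1eGFP supernatant. The lowest exposed library lay well above the highest unexposed one. For Stat3 the log2 fold change was 0.72 (SE 0.0456, adjusted p = 1.22e-07) with rIFNβ and 0.67 (SE 0.0454, adjusted p = 2.43e-07) with Ifnb1eGFP supernatant. Of the 4 STAT genes called, Stat3 had the second largest fold change in both comparisons, 1.65-fold and 1.59-fold. Each eGFP supernatant library also exceeded each untreated one, as in 7.96% of all genes, with a log2 fold change of 0.14 that was not called (95% confidence interval 0.04 to 0.24, adjusted p = 0.351).

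Stat5a and Stat5b, which carry signals of IL2, GM-CSF and growth hormone, lie beside each other on chromosome 11. Stat5a (ENSMUSG00000004043) is on the plus strand at chr11:100750177-100776065, and Stat5b (ENSMUSG00000020919) on the minus strand at chr11:100671556-100741589. The transcripts of the pair share 612 windows of 50 bases, 6.96% of those of Stat5a and 7.45% of those of Stat5b, so that reads there are divided between them by estimate, while no other pair of the 6 genes shares any. Stat5a and Stat3 overlap by 142 exonic bases on opposite strands.

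Stat5b measured 50.5, 47.7 and 48.6 CPM in untreated control and 65.0, 72.7 and 62.8 CPM with rIFNβ. It measured 50.02, 48.9 and 42.2 CPM with eGFP supernatant and 54.5, 69.7 and 58.9 CPM with Ifnb1eGFP supernatant. The exposed libraries were all higher than the unexposed ones, although those with Ifnb1eGFP supernatant were spread widely (SD 7.82 CPM). For Stat5b the log2 fold change was 0.45 (SE 0.0939, adjusted p = 0.00162) with rIFNβ and 0.37 (SE 0.0938, adjusted p = 0.00536) with Ifnb1eGFP supernatant.

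Stat5a measured 23.2, 21.9 and 22.02 CPM in untreated control and 23.0, 22.4 and 21.9 CPM with rIFNβ. It measured 23.3, 22.5 and 20.5 CPM with eGFP supernatant and 16.6, 22.2 and 19.7 CPM with Ifnb1eGFP supernatant. The conditions overlapped throughout. For Stat5a the log2 fold change was 0.00 (95% confidence interval −0.20 to 0.20, adjusted p = 0.978) with rIFNβ and −0.18 (95% confidence interval −0.38 to 0.02, adjusted p = 0.111) with Ifnb1eGFP supernatant. The second value was called with DESeq2 (adjusted p = 0.0372), with edgeR's RLE factors (adjusted p = 0.0403) and without the Ifnb1eGFP supernatant library of replicate 2 (−0.28, adjusted p = 0.0104). Within each library the ratio of Stat5a to Stat5b counts was 0.453 to 0.487 in unexposed and 0.305 to 0.354 in exposed libraries, 0.706 times as high (two-sided exact permutation test over 400 relabellings within medium, p = 0.005, the smallest p possible, and 0.005 after adjustment over 2 ratios). This ratio, too, was chosen with earlier results of these data known.

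Stat4 (ENSMUSG00000062939), which carries the signal of IL12 and is best known from T and NK cells, lies at chr1:52026307-52151423 on the plus strand. It was near the lower end of what could be tested, with 14 to 60 counts per library. It measured 0.572, 0.790 and 1.16 CPM in untreated control and 0.415, 0.742 and 0.834 CPM with rIFNβ. It measured 1.11, 1.41 and 1.38 CPM with eGFP supernatant and 1.19, 1.19 and 1.303 CPM with Ifnb1eGFP supernatant. Libraries with and without IFNβ overlapped, and the log2 fold change was −0.34 (95% confidence interval −0.98 to 0.29, adjusted p = 0.344) with rIFNβ and −0.08 (95% confidence interval −0.67 to 0.50, adjusted p = 0.81) with Ifnb1eGFP supernatant. Stat4 shares 1033 exonic bases with Gm28177, a long noncoding RNA on the same strand that rose with IFNβ (log2 fold change 2.98, adjusted p = 1.15e-06). Its part in the Stat4 values was not tested.

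**Figure D3:**
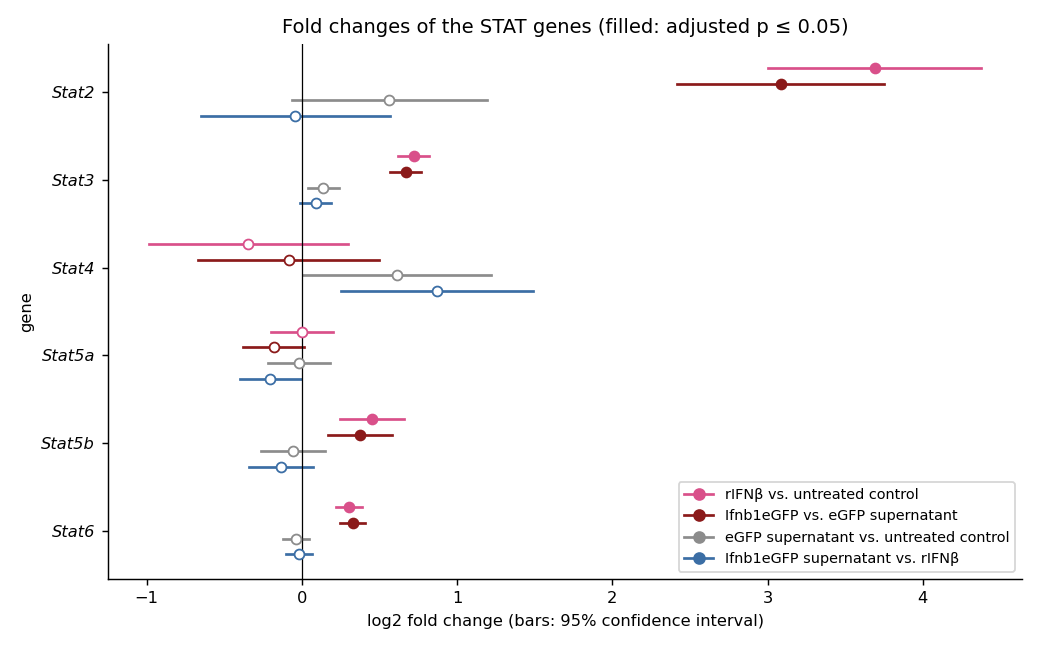
Log2 fold change of each STAT gene in 4 comparisons (horizontal axis), with 95% confidence intervals from edgeR's quasi-likelihood fit; filled points were called. Only the points of Stat2, Stat3, Stat5b and Stat6 for the 2 comparisons with IFNβ are filled, with Stat2 at 3.69 and 3.08.

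Between the sources of IFNβ no STAT gene was called. For Ifnb1eGFP supernatant against rIFNβ, 0.16% of all genes tested were called, and 0 of the 6 STAT genes with edgeR (2 of 6 at an unadjusted p under 0.05, Stat4 and Stat5a, and 8.57% of all genes). The log2 fold change of Stat2 was −0.04 (95% confidence interval −0.65 to 0.57) and that of Stat6 −0.02 (95% confidence interval −0.10 to 0.07). Stat2 measured 637 to 655 CPM with Ifnb1eGFP supernatant and 662 to 677 CPM with rIFNβ. The eGFP supernatant library of replicate 2 enters the shared fit, and without it the Stat2 value was −0.04 with an SE of 0.110. Stat4 was 0.87 higher with Ifnb1eGFP supernatant on the log2 scale (95% confidence interval 0.26 to 1.49, adjusted p = 0.459), with each supernatant library above each rIFNβ library, as in 8.22% of all genes.

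The eGFP supernatant on its own also gave no call among the STAT genes (0 of 6 with edgeR, 2 of 6 at an unadjusted p under 0.05, Stat3 and Stat4, beside 0.299% of all genes called and 8% at that unadjusted p). The log2 fold change of Stat2 against untreated control was 0.56 (95% confidence interval −0.06 to 1.19, adjusted p = 0.688), and 0.02 without the library of replicate 2. Averaged over both IFNβ states, supernatant was called for 0.905% of all genes and for 0 of the 6 STAT genes with edgeR (Stat3 and Stat4, 2 of 6, had an unadjusted p under 0.05, as had 11.4% of all genes). The largest of these differences was that of Stat4, at 0.74 (95% confidence interval 0.31 to 1.17, adjusted p = 0.143), followed by Stat2 at 0.26 (adjusted p = 0.649; −0.01 without the eGFP supernatant library of replicate 2) and Stat3 at 0.11 (adjusted p = 0.173). With DESeq2, Stat3 (adjusted p = 0.0192) and Stat4 (adjusted p = 0.0445) were called, beside 2.78% of all genes with an adjusted p. The interaction of IFNβ and supernatant was called for 0% of all genes with edgeR (661 genes, or 4.4%, had an unadjusted p under 0.05). With DESeq2 it was called for 0.175% of the genes with an adjusted p. With edgeR it was called for 0 of the 6 STAT genes, none of which had an unadjusted p under 0.05. In the comparisons of the IFNβ sources, of eGFP supernatant with control and of the interaction, DESeq2 called 0 of 5 STAT genes and gave Stat4 no adjusted p. With edgeR the interaction value of Stat2 was −0.61 (95% confidence interval −1.48 to 0.27), and −0.06 without the eGFP supernatant library of replicate 2.

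Levels of different genes were compared per length, as CPM per kilobase of annotated exonic sequence. In untreated control the order was Stat6 (40.8), Stat2 (8.20), Stat3 (7.79), Stat5b (7.07), Stat5a (2.71) and Stat4 (0.0938), and the range of Stat2 over libraries (6.88 to 9.82) overlapped those of Stat3 and of Stat5b (6.89 to 7.29). With eGFP supernatant the order was unchanged, and Stat2 and Stat3 again overlapped. In both IFNβ-exposed conditions Stat2 came first, at 102.8 with Ifnb1eGFP supernatant and 105.8 with rIFNβ, and Stat6 second, at 49.9 and 50.5. Stat3 (13.7 and 12.8), Stat5b (8.82 and 9.66), Stat5a (2.36 and 2.72) and Stat4 (0.137 and 0.0741) followed without overlap between neighbours. Stat3, Stat5b, Stat5a and Stat4 thus stood in the same order among themselves in all 4 conditions. With the longest transcript as length, Stat3 came before Stat2 in untreated control.

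**Figure D4:**
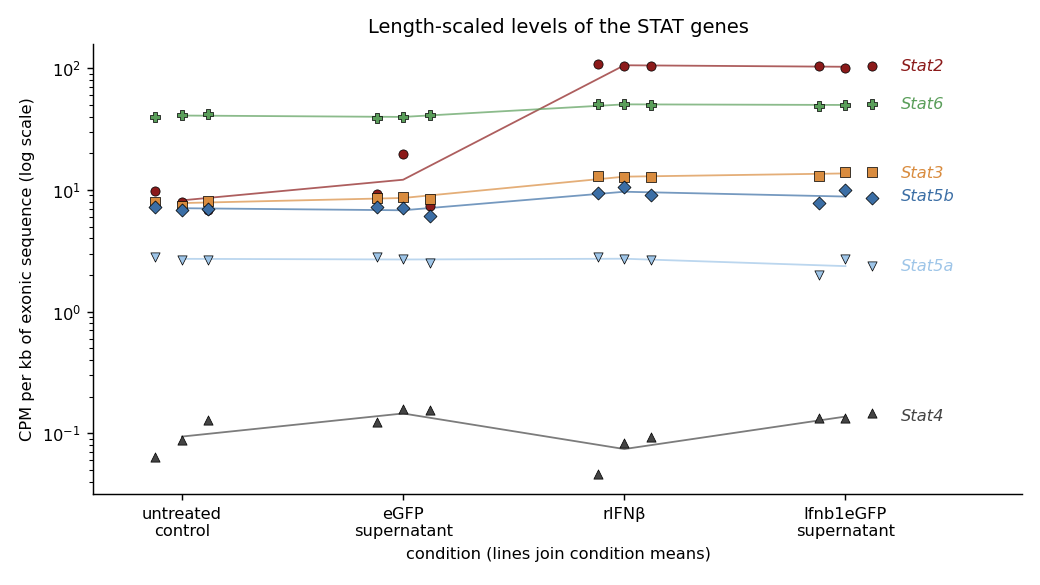
Level of the STAT genes in CPM per kilobase of exonic sequence (vertical axis, log scale) in the 12 libraries, by condition; points are libraries and lines join condition means. Stat2 moves from a range that overlaps that of Stat3 in both unexposed conditions to above Stat6 in the exposed ones, while the other genes keep their order.

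The genes whose log2 CPM followed each STAT gene most closely over the 12 libraries, which share their conditions and depth, are given as a description. For Stat2 they were Rigi, the gene of a viral RNA sensor (Pearson r = 0.9998), Ifi205 (r = 0.9995) and Iigp1c (r = 0.9994). For Stat3 they were Inpp5d (r = 0.995), Lgmn (r = 0.994) and Zfp821 (r = 0.993), and for Stat6 Ubb (r = 0.995), Top3b (r = 0.994) and Ccnd2 (r = 0.994). Stat5b was followed by Zc3h7b (r = 0.990), 2310022A10Rik (r = 0.988) and Unc93b1 (r = 0.987). All 12 of these genes rose with IFNβ. Btbd2 (r = 0.958) and Zxda (r = 0.958), which followed Stat5a, and the genes closest to Stat4, Ociad2 (r = 0.900), St6gal1 (r = 0.867) and AI429214 (r = 0.866), were not called for IFNβ. Among the STAT genes the closest pair was Stat2 and Stat3 (r = 0.976), while Stat5a and Stat5b had r = 0.0893.

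Upstream of the STATs, each receptor and kinase list was read for IFNβ averaged over both media, where 66.2% of all genes tested were called (36.1% higher and 30.1% lower) and the median log2 fold change was 0.03. Of the 4 interferon receptor genes, Ifnar2 rose (log2 fold change 0.65, adjusted p = 2.2e-07), Ifnar1 fell (−0.58, adjusted p = 4.94e-09), Ifngr2 fell (−0.22, adjusted p = 0.000262), and Ifngr1 was not called (−0.05, adjusted p = 0.298), with a list median of −0.14. Of the 3 chains of the IL4 and IL13 receptors, Il4ra rose (0.99, adjusted p = 1.03e-07) and so did the common gamma chain Il2rg (0.67, adjusted p = 1.49e-06), while Il13ra1 was not called (−0.15, adjusted p = 0.338). Without the Ifnb1eGFP supernatant library of replicate 1, 1 of the 3 chains was called lower. Il4ra went from 64.6 ± 6.18 CPM in untreated control to 137 ± 3.43 CPM with rIFNβ, and from 84.0 ± 2.92 CPM with eGFP supernatant to 156 ± 21.6 CPM with Ifnb1eGFP supernatant (SD, n = 3). Ifnb1 itself had at most 1 count in any library.

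Among the 4 Janus kinases, Jak2 rose most (1.27, adjusted p = 5.48e-10), followed by Jak3 (0.95, adjusted p = 7.49e-05) and Tyk2 (0.30, adjusted p = 0.00218). Jak1 was not called (−0.07, adjusted p = 0.106). It was called lower for rIFNβ against untreated control (−0.15, adjusted p = 0.0326) and not between the supernatants (0.00, adjusted p = 0.973). Averaged over media, 1 kinase was called lower with DESeq2, with RLE factors and without the Ifnb1eGFP supernatant library of replicate 1. Of the kinases that serve the type I interferon receptor, JAK1 and TYK2, Tyk2 measured 67.7 ± 1.17 CPM in untreated control and 90.3 ± 3.89 CPM with rIFNβ, and Jak1 333 ± 10.4 and 299.7 ± 9.68 CPM (SD, n = 3). Of 15 tested genes of other cytokine receptors that use STATs, 6 rose and 7 fell, with a median of −0.21. The called genes with the largest changes were Il27ra, a receptor of IL27 (−1.87), Il12rb1 of IL12 (1.47), Csf3r of G-CSF (1.06) and Il10ra of IL10 (1.03). Exposed and unexposed libraries overlapped for Il12rb1 (SE 0.334), and not for the others named. Il10ra (0.16, adjusted p = 0.0475) and the IL6 receptor gene Il6ra (0.19, adjusted p = 0.0148) were also called higher with supernatant, averaged over both IFNβ states.

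Of 17 inhibitors of the pathway, 8 rose, 3 fell and 6 were not called (median 0.23), a share called near that of all genes (66.2%). Usp18, which restrains signaling at the type I interferon receptor, rose by 5.09 (adjusted p = 3.86e-07; 5.70 without the eGFP supernatant library of replicate 2), from 5.01 ± 1.54 CPM in untreated control to 292 ± 14.0 CPM with rIFNβ (SD, n = 3). Socs1, an inhibitor of Janus kinases, rose by 2.32 (adjusted p = 4.88e-06), at no more than 83 counts per library, and the phosphatase gene Ptpn6 by 0.80 (adjusted p = 6.69e-10). Socs2 fell by 1.31 on the log2 scale (adjusted p = 0.000284).

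**Figure D5:**
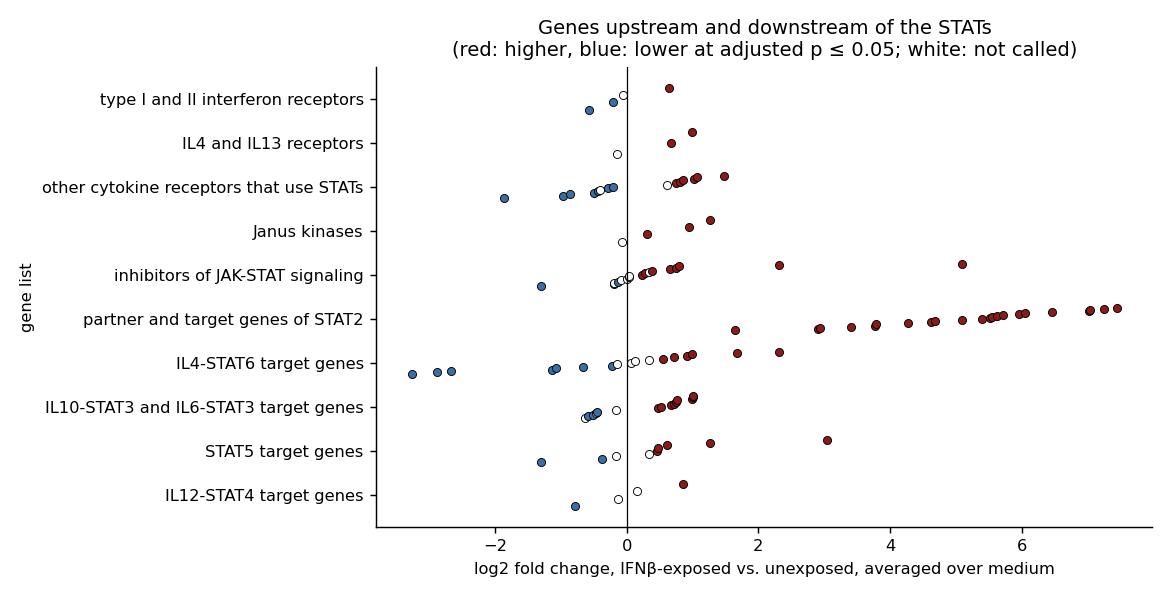
Log2 fold change with IFNβ, averaged over both media (horizontal axis), of each tested gene in 10 lists of genes upstream and downstream of the STATs; each point is a gene, red called higher, blue called lower and white not called. The 22 partner and target genes of STAT2 lie to the right of 0, and the IL4-STAT6 target genes lie on both sides.

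Downstream, the lists were read for the same comparison, IFNβ averaged over both media, with 36.1% of all genes called higher and 30.1% lower. All 22 partner and target genes of STAT2 rose, with a median of 5.46. Without the eGFP supernatant library of replicate 2 the median was 6.07. Each target list of another STAT held genes that rose and genes that fell, as did all genes tested. DESeq2 called 17 of the 22 higher and gave no p for the other 5. Irf9, the DNA-binding partner of STAT2, rose by 1.65 (SE 0.1, adjusted p = 4.27e-08), from 32.3 ± 3.60 CPM in untreated control to 112 ± 2.64 CPM with rIFNβ, and from 38.2 ± 9.77 to 108 ± 3.38 CPM between the supernatants (SD, n = 3). The largest increases of the list were those of Oasl1 (7.45, adjusted p = 5.92e-10), Ifi44 (7.26, adjusted p = 4.53e-08), Ifit3 (7.03, adjusted p = 2.38e-06) and Irf7 (7.02, adjusted p = 1.1e-07), which without the eGFP supernatant library of replicate 2 were 7.96, 8.08, 8.09 and 7.65. IRF7 is a transcription factor of the interferon response, and Ifit3 encodes an antiviral protein. All 22 were highest among unexposed libraries in the eGFP supernatant library of replicate 2, and in Ifit3 that library had 5136 counts, against 281 in the lowest of the 3.

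Of 17 tested IL4-STAT6 target genes out of 24 listed, 6 rose, 7 fell and 4 were not called, with a median of 0.06. Among all genes tested, 36.1% were called higher and 30.1% lower. Egr2, a transcription factor induced by IL4, fell most (log2 fold change −3.27, adjusted p = 2.34e-11), from 139 ± 9.09 CPM in untreated control to 13.4 ± 1.44 CPM with rIFNβ, and from 127 ± 14.0 to 14.2 ± 1.52 CPM with supernatant (SD, n = 3). Il4i1, an amino acid oxidase, fell by 2.68 on the log2 scale (adjusted p = 9.9e-06). The chemokine gene Ccl22 was called lower at very low counts, with 6 to 13 per unexposed library, 2 to 3 with Ifnb1eGFP supernatant and 0 to 1 with rIFNβ. Socs1, which stands in this list too, rose as given above, and so did Il4ra. Irf4, a transcription factor of M2-like polarization, fell with IFNβ (−1.14, adjusted p = 1.62e-06) and, averaged over both IFNβ states, with supernatant (−0.54, adjusted p = 0.0424).

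Of 15 target genes of STAT3 after IL10 or IL6, 9 rose, 3 fell and 3 were not called (median 0.52), and 5 fell without the Ifnb1eGFP supernatant library of replicate 2. Those with the largest changes were the transcriptional regulators Etv3 (1.01, adjusted p = 1.03e-10), Bcl3 (1.00, adjusted p = 6.99e-05) and Fos (0.77, adjusted p = 1.21e-05), together with Il4ra. Of 9 target genes of STAT5, 5 rose, 2 fell and 2 were not called (median 0.46). Il2ra, the alpha chain of the IL2 receptor, went from 0 to 2 counts per unexposed library to 7 to 19 per exposed one. Lif, a cytokine gene, rose by 1.26 (adjusted p = 0.000623), the cyclin gene Ccnd1 by 0.62 (adjusted p = 7.45e-06), and Socs2 fell as given above. Of 4 tested target genes of STAT4 out of 8 listed, Il12rb2 rose (0.85, adjusted p = 8.16e-06), Il18rap fell (−0.79, adjusted p = 0.00291), and Hlx (0.16, adjusted p = 0.461) and Furin (−0.13, adjusted p = 0.372) were not called, and 2 of the 4 fell without that same library. Beside these counts, 36.1% of all genes tested were called higher and 30.1% lower. These lists share genes, so their counts are not independent.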

How the data were processed

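Bulk RNA of 12 BMDM cultures was measured. From 600 ng of total RNA the authors made stranded libraries (TruSeq Stranded Total RNA), and they deposited expected counts per Ensembl gene from RSEM 1.3.3. The submitters name the reference GRCm39 and mm10, which are different builds, and no strand setting or annotation release is given in the sources used here. RSEM divides reads that match several genes by estimate, so 12% of values were not whole, and all were rounded. Each column was assigned to a sample by its description.

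The fit used edgeR 4.0.16 under R 4.3.3 (filterByExpr, TMM factors, 1 quasi-likelihood fit over all 12 libraries, Benjamini-Hochberg adjustment over 15033 genes). The SE is the absolute log2 fold change divided by the root of F. The 4 conditions were compared with IFNβ, with supernatant, averaged over either, and by their interaction. The smallest exact permutation p for 3 against 3 libraries is 0.1, so genes were tested through the fit, and ratios over 6 against 6 libraries. Library totals limit precision mainly for Stat4. Positions come from GENCODE M39 and lengths are the union of annotated exons.

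The STAT genes, lists and tests were chosen with earlier results of these data known, and the lists were written from general knowledge. Named were the STAT genes, the 3 genes closest in pattern to each, every gene of lists with at most 5 tested, otherwise the 4 largest changes called with IFNβ and those called with supernatant, and Irf9, Jak1, Tyk2, Il4ra, Ifnb1 and neighbouring genes. Alternatives were DESeq2 1.42.0, RLE factors, library totals, no filter, only the compared conditions, the replicate block, a pseudocount of 2 in ratios, the longest transcript as length and each library left out. The fit was tested on simulated data. Some genes that these rules name are not reported here.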

Additional observations from a re-analysis of the deposited data

How the results depend on the processing

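No called STAT gene changed direction under any alternative run. Stat2, Stat5b and Stat6 stayed on the same side of the threshold in 123 of 123 alternative values each, Stat3 in 122 of 123, Stat4 in 118 of 120 and Stat5a in 118 of 123. Stat5a for Ifnb1eGFP against eGFP supernatant was called with DESeq2 (−0.22, adjusted p = 0.0372) and RLE factors (−0.22, adjusted p = 0.0403) and ran from −0.28 to −0.12 with each library left out. Without the Ifnb1eGFP supernatant library of replicate 2 it was called in this comparison, against rIFNβ (−0.30, adjusted p = 0.0472, 1 STAT gene in place of 0) and for IFNβ averaged over media (−0.14, adjusted p = 0.036). The latter ran from −0.14 to −0.0691 with each library left out. For supernatant averaged over IFNβ states, DESeq2 called Stat3 (0.12) and Stat4 (0.75), 2 STAT genes in place of 0. With DESeq2, RLE factors or without the Ifnb1eGFP supernatant library of replicate 1, 1 Janus kinase was lower in place of 0, and without that library 1 chain of the IL4 and IL13 receptors was lower in place of 0. Without the Ifnb1eGFP supernatant library of replicate 2, 5 STAT3 targets were lower in place of 3 and 2 STAT4 targets in place of 1, and with no filter 2 STAT4 targets were higher in place of 1. The ranks of Stat2 (3) and Stat3 (2) in untreated control with the longest transcript as length reflect the other length used. The cause of the other shifts was not tested.

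The replicate numbers were not shown to pair the samples: libraries with the same number had correlated deviations (mean r 0.148, 0.0582 to 0.252 over 18 pairs, 13 of them over 0.1), those with different numbers did less (mean r −0.0742, −0.318 to 0.147 over 36 pairs, 1 over 0.1), and 12 of 12 libraries correlated best with one of their own number, as a hint from the data. With the replicate number as a block, Stat4 was called for supernatant averaged over IFNβ states (0.77, adjusted p = 0.0401, 1 STAT gene in place of 0), 1 Janus kinase was lower in place of 0 and 5 STAT3 targets in place of 3. It changed no other call of a STAT gene. Depth limits Stat4 most, with 14 to 60 counts per library.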
